A study of Sus scrofa with 6 samples.

Results

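Genes of macrophages and monocytes, dendritic cells and granulocytes were followed in the endometrium of Erhualian sows on day 12 of gestation. The set of 43 symbols was a list of myeloid marker and effector genes, and a member was any row of the deposited table whose pig Ensembl identifier carried a listed symbol. This gave 33 members among 14262 genes, 29 of 33 listed for macrophages and monocytes, 1 of 4 for dendritic cells and 3 of 6 for granulocytes. MARCO, FLT3, XCR1 and MPO had identifiers that matched no row. The symbols CSF2RA, CYBB, ITGAX, CLEC9A, FPR1 and FPR2 matched no identifier in the symbol table. These 10 genes are not analysed here.

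Erhualian is a Chinese pig breed (Sus scrofa). The study set 3 high prolific sows against 3 low prolific sows, with 1 RNA-seq library of frozen endometrium per sow. All 6 sows were at the same stage of gestation, and no treatment or allele is labelled. Sows are called high 1 to high 3 and low 1 to low 3, with parities (litters borne) of 5, 8 and 8 and of 7, 7 and 5. The labels used here do not say which litter size made a sow high or low prolific, nor how many conceptuses each carried. The title of the series also sets calcium ion concentration beside litter size.

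As background, macrophages arise from monocytes and resident precursors, and their survival depends on the growth factor CSF1 acting through its receptor CSF1R. They clear dying cells and debris through scavenger and complement receptors, present antigen on MHC class II, and kill microbes with an oxidase assembled at the membrane. Dendritic cells carry antigen to lymph nodes, and neutrophils are short-lived granulocytes that enter tissue from blood. In the pregnant uterus macrophages are among the commonest leukocytes and take part in tissue remodelling around the conceptus.

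Each value is the authors' normalized read count for 1 gene in 1 library. Columns summed to between 22663087 (high 2) and 24270245 (low 2), sums that reflect the normalization, so the sequencing depth behind each value is unknown. The first principal component of all genes held 43.6% of the variance, with low 2 and low 3 at one end (-0.53 and -0.54) and the other 4 sows between 0.019 and 0.50. Groups were compared with limma on log2(value + 1), high minus low prolific, and p-values were adjusted over the 14262 genes by the Benjamini-Hochberg method. At an adjusted p under 0.05, limma called 0 genes (0% of those tested), hence 0 of the 33 members. At an unadjusted p under 0.05 it marked 1129 genes (7.92%), 583 of them lower in high prolific sows (4.09%). No member passed the test, and their levels are described as they stood. FOXA2, a transcription factor of uterine glands, ran from 1146 in low 3 to 1732 in high 2, and HOXA10, one of uterine stroma, from 1509 in low 2 to 1986 in high 1.

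By unadjusted p under 0.05, 3 of the 33 members were marked (9.09%, beside 7.92% of all genes), and all 3, LAPTM5, ACOD1 and TREM1, lay lower in high prolific sows. Groups did not overlap in 3 members (9.09%, beside 13.5% of all genes). PGLYRP1 was the 1 of these that lay higher in high prolific sows (7.18% of all genes did), and LAPTM5 and TREM1 were the 2 that lay lower (6.32% of all genes). The first share was near that of the whole table and the second below it. The count of 3 became 1 on leaving out high 2 or low 3, and 5 on leaving out low 1. Over all genes the count moved too, from 1129 to 466 on leaving out high 2 and to 1872 on leaving out low 1. LAPTM5, ACOD1 and TREM1 each had a limma unadjusted p above 0.05 on leaving out low 2. Among macrophage and monocyte members, 11 log2 fold changes were above 0 and 18 below, with a median of -0.058, where the median of all genes was -0.0024. In bulk tissue, fewer cells of a type and less RNA per cell cannot be told apart.

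**Figure D1:**
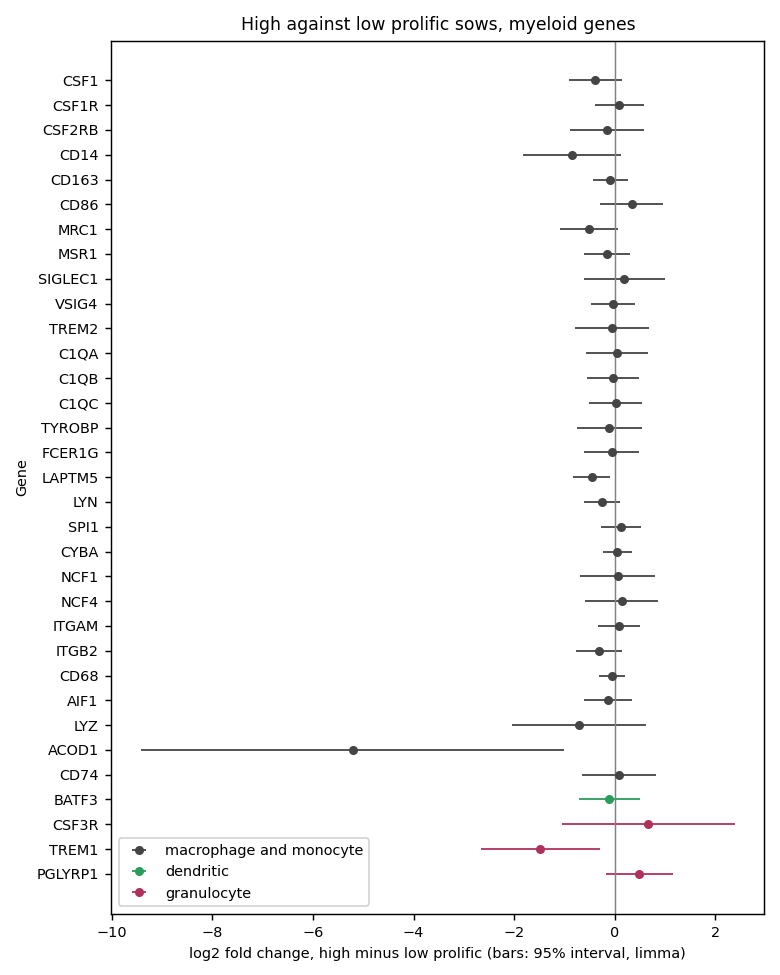
Log2 fold change of each of the 33 members, high minus low prolific sows, on the log2(value + 1) scale, with its 95% interval from limma over 3 sows against 3. Most intervals span 0, those of LAPTM5, ACOD1 and TREM1 lie below it, and ACOD1 has the widest, from -9.42 to -1.01.

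In the growth factor axis of macrophages the groups overlapped. CSF1, the growth factor that keeps macrophages alive, was at 790.3, 655 and 713 in high 1 to high 3 and 1093, 674 and 1116 in low 1 to low 3. Low 1 and low 3 were the highest sows and low 2 lay among the high prolific ones, so the groups overlapped (719.6 ± 67.7 in the high and 961 ± 249 in the low prolific group, SD, n = 3, log2 fold change -0.38 ± 0.22, SE). Its receptor CSF1R, the defining receptor of the lineage, was at 979, 1133 and 761 in high 1 to high 3 and 883, 737 and 1085 in low 1 to low 3. High 2 and low 3 were at the top and high 3 and low 2 at the bottom, and the group difference was 0.086 with a 95% interval from -0.40 to 0.57. CSF2RB, the signalling chain shared by the GM-CSF, IL-3 and IL-5 receptors, ran from 249.8 in low 2 to 529 in low 3 (log2 fold change -0.15).

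IL34, the second ligand of CSF1R, was not a member but belongs to the same axis. It was at 190.2, 109 and 153 in high 1 to high 3 and 281, 227 and 200.4 in low 1 to low 3. It lay lower in each high prolific sow than in every low prolific sow, with a log2 fold change of -0.66 and a limma adjusted p of 0.625. The receptor's own level therefore overlapped between groups while this ligand's did not, although neither passed the test.

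Surface and scavenger receptors, of which 8 of 9 were measured, gave 6 log2 fold changes below 0 and 2 above. Of these 8 log2 fold changes, 5 were smaller in size than their SE (beside 7900 of all 14262 genes). At an unadjusted p under 0.05, 0 of the 8 receptors were marked (beside 7.92% of all genes). MRC1, the mannose receptor of tissue macrophages, had the smallest p among them (limma unadjusted p = 0.0695, adjusted 0.645). It was at 654, 464 and 518 in high 1 to high 3 and 810, 571 and 999.7 in low 1 to low 3. Low 3 was highest and high 2 lowest, but low 2 lay between high 3 and high 1. CD14, the coreceptor for bacterial lipopolysaccharide that marks monocytes, was at 301, 198 and 183 in high 1 to high 3 and 221, 494 and 596 in low 1 to low 3. Low 2 and low 3 were the highest sows, while low 1 lay between high 2 and high 1. Its log2 fold change of -0.85 ± 0.41 (SE) became 0.0065 when low 2 and low 3 were both left out and -0.57 when only low 3 was.

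CD86, a costimulatory ligand for T cells, had low 2 and low 3 at the other end. It was at 629, 738 and 830.3 in high 1 to high 3 and 857, 456 and 492 in low 1 to low 3. Low 1 was the highest sow, low 2 and low 3 were the lowest, and the log2 fold change of 0.33 turned to -0.24 on leaving out both. CD163, the hemoglobin scavenger receptor, stayed within a 1.41-fold range, from 757 in low 2 to 1064 in low 1 (844 ± 35.3 in the high and 906 ± 154 in the low prolific group, SD, n = 3). Its interval ran from -0.44 to 0.26 in log2 units.

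The rest of the surface receptors varied with no order by group. MSR1, a scavenger receptor for modified lipoproteins, ran from 102 in high 2 to 139 in low 1. VSIG4, a complement receptor of resident macrophages, ran from 301 in high 3 to 421 in low 3. TREM2, a lipid-sensing receptor that signals through TYROBP, had low values and ran from 23.4 in high 3 to 38.9 in high 2. SIGLEC1, the sialic acid receptor sialoadhesin, spread most of these 4, from 120.1 in low 2 to 299.9 in low 3, with both ends inside the low prolific group. Their log2 fold changes lay between -0.15 (MSR1) and 0.19 (SIGLEC1).

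C1q, the recognition molecule that starts the classical complement pathway, is built from 3 chains that macrophages make together. C1QA was at 1358, 1586 and 942 in high 1 to high 3 and 1115, 1015 and 1622 in low 1 to low 3. C1QB was at 1926, 2193 and 1492 in high 1 to high 3 and 1719, 1591 and 2451 in low 1 to low 3. C1QC was at 1972, 2503 and 1615 in high 1 to high 3 and 1845, 1661 and 2516 in low 1 to low 3. All 3 chains put the sows in 1 and the same order, low 3, high 2, high 1, low 1, low 2, high 3, so each group held both high and low sows. The ratio of C1QB to C1QA moved only between 1.38 and 1.58 and that of C1QC to C1QB between 1.02 and 1.14, while C1QA itself covered a 1.72-fold range. Group differences in log2 units were 0.048 (95% interval -0.57 to 0.66), -0.030 (-0.55 to 0.49) and 0.016 (-0.51 to 0.54), and each changed sign with the sow left out (C1QA from -0.11 without high 2 to 0.26 without high 3). In the RefSeq annotation the 3 genes are direct neighbours on chromosome 6.

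**Figure D2:**
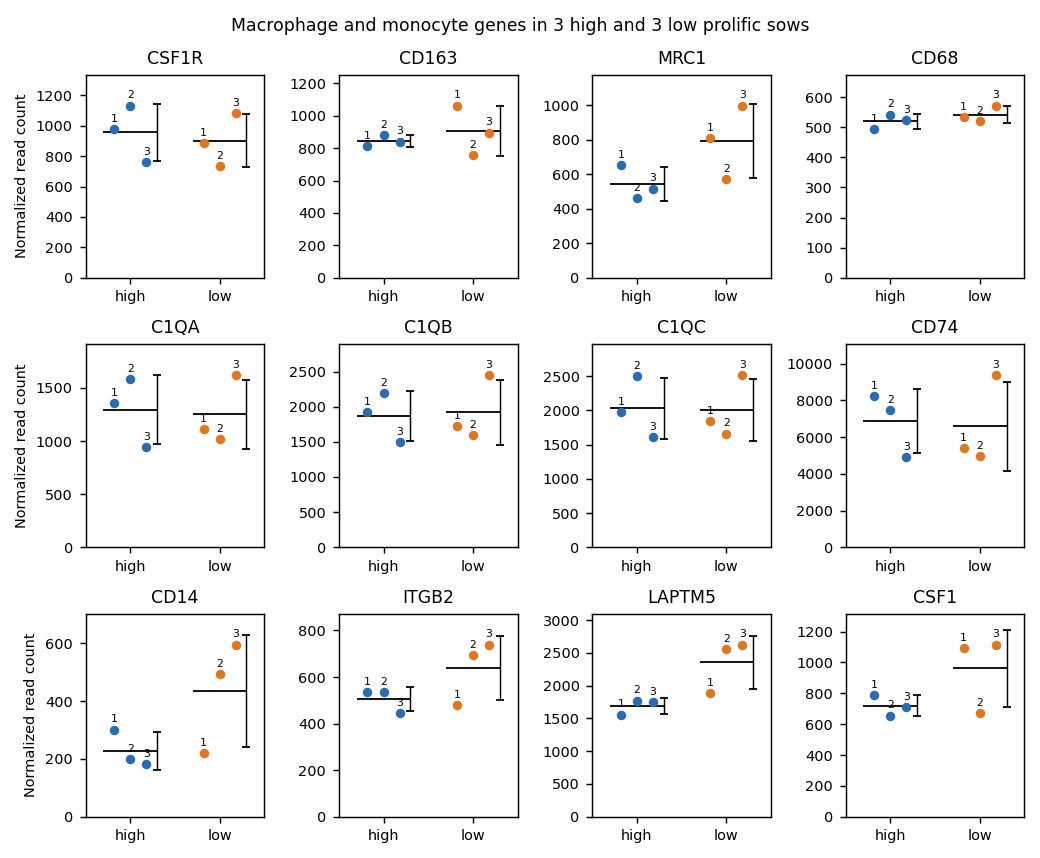
Normalized read counts (linear axes from 0) of 12 macrophage and monocyte genes, with high prolific sows in blue and low prolific sows in orange. Points are sows numbered as in the text, lines are means and bars SD over 3 sows. The C1q panels repeat 1 order of sows, and in LAPTM5 the lowest low prolific sow (1890.2) lies above the highest high prolific sow (1773).

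The signalling adaptors, kinase and transcription factor of myeloid cells held the lowest unadjusted p of all members. LAPTM5, a lysosomal membrane protein of leukocytes, was at 1557, 1773 and 1750.4 in high 1 to high 3 and 1890.2, 2551 and 2625 in low 1 to low 3. Every high prolific sow lay below every low prolific sow, with low 1 near the high prolific sows and low 2 and low 3 well above them. The means were 1693 ± 119 in the high and 2355 ± 405 in the low prolific group (SD, n = 3), and on the log2(value + 1) scale the level was 1.38-fold lower in high prolific sows, with a limma unadjusted p of 0.0206 and adjusted p of 0.619. Its log2 fold change went from -0.46 to -0.16 once low 2 and low 3 were both left out, and the unadjusted p exceeded 0.05 when high 1 (0.0684), low 2 (0.0649) or low 3 (0.0593) was left out.

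TYROBP and FCER1G, the adaptors through which many activating receptors signal, did not share the order of LAPTM5. TYROBP was at 209, 251 and 128 in high 1 to high 3 and 224, 186 and 201 in low 1 to low 3. FCER1G ran from 213 in high 3 to 362 in high 2, and both had high 2 as the highest and high 3 as the lowest sow. LYN, a Src family kinase, peaked in low 2 (968), and the remaining 5 sows ran from 623 to 743. SPI1, which encodes the transcription factor PU.1 needed for myeloid development, ran from 241 in low 2 to 339.8 in high 2, with a log2 fold change of 0.12 (95% interval -0.27 to 0.51).

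Phagocyte oxidase subunits, 3 of 4 measured, had small differences in log2 units. CYBA, the membrane subunit p22phox, stayed within a 1.25-fold range, from 886 in low 2 to 1107 in high 2. NCF4, the cytosolic subunit p40phox, was at 134, 145 and 110.4 in high 1 to high 3 and 116, 81.6 and 170.3 in low 1 to low 3. Low 2 and low 3 marked its lowest and highest values. NCF1, the subunit p47phox, ran from 97.8 in high 1 to 181 in high 3, and its lowest sows were high 1 and low 3 (97.8 and 105). The 3 log2 fold changes were 0.052, 0.14 and 0.055. NCF4 and CSF2RB are direct neighbours on chromosome 5 in the RefSeq annotation, and in both genes low 3 was the highest and low 2 the lowest sow. These extremes were not particular to the 2 neighbours. SIGLEC1 shared them, and low 3 was the highest sow in 17 of the 29 macrophage and monocyte members.

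Beta 2 integrins carry phagocytes across the vessel wall. ITGB2, the shared beta chain, was at 536, 536 and 444 in high 1 to high 3 and 481, 693 and 739 in low 1 to low 3. Low 2 and low 3 were the highest sows and low 1 lay within the high prolific range, so its log2 fold change of -0.32 turned to 0.067 on leaving out both. ITGAM, the alpha chain of complement receptor 3, ran from 640.4 in low 1 to 958 in high 2 (log2 fold change 0.079).

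The remaining macrophage members were intracellular or secreted products. CD68, a lysosomal glycoprotein used to stain macrophages, had the narrowest range of any member, 1.16-fold, from 493 in high 1 to 572 in low 3 (519 ± 24.7 in the high and 542 ± 26.9 in the low prolific group, SD, n = 3). Its 95% interval of -0.32 to 0.20 lay inside a 2-fold change in either direction. AIF1, the calcium-binding protein IBA1, ran from 152 in high 3 to 228 in low 3. CD74, the invariant chain that escorts MHC class II, was at 8237, 7449 and 4896 in high 1 to high 3 and 5408, 4941 and 9377 in low 1 to low 3. Low 3 and high 1 were its highest sows and high 3 and low 2 its lowest, and the means were 6861 ± 1747 in the high and 6575 ± 2437 in the low prolific group (SD, n = 3). LYZ, the bacteriolytic enzyme lysozyme, was at 874, 350 and 284 in high 1 to high 3 and 539, 509 and 1396 in low 1 to low 3. It covered a 4.91-fold range with low 3 and high 1 on top, and its log2 fold change of -0.71 ran from -1.20 on leaving out high 1 to -0.24 on leaving out low 3.

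ACOD1, the mitochondrial enzyme that makes itaconate in activated macrophages, had the widest spread of all members. It was at 84.9, 5.81 and 10.7 in high 1 to high 3 and 53.1, 1627 and 3967 in low 1 to low 3. Low 2 and low 3 stood far above the other 4 sows, and low 1 lay below high 1, so the groups overlapped. Its log2 fold change of -5.21 ± 1.74 (SE), or 37.1-fold lower in high prolific sows on the log2(value + 1) scale, was the most negative of all 14262 genes, with a limma unadjusted p of 0.0226 and adjusted p of 0.619. Leaving out low 3 gave -3.97 (limma unadjusted p = 0.0722), leaving out low 1 gave -7.07 (0.00102), and leaving out low 2 together with low 3 gave -1.51 (0.377). The unadjusted p also exceeded 0.05 when high 2 (0.0717), high 3 (0.0639) or low 2 (0.0704) was left out. As background, ACOD1 is made in the uterine epithelium of mice under progesterone as well as in macrophages, and these bulk libraries do not show which cells made it here. CSF1R and C1QA stood differently in the 2 sows with the most ACOD1. In low 2 CSF1R was at its lowest (737) and C1QA at 1015, below 4 of the other 5 sows. In low 3 C1QA was at its highest (1622) and CSF1R at 1085, second to high 2. By contrast, CD14, LAPTM5, LYN and ITGB2 had low 2 and low 3 as their 2 highest sows. In 8 of the 29 macrophage and monocyte members low 2 was the lowest sow. How these levels relate to ACOD1 was not tested.

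**Figure D3:**
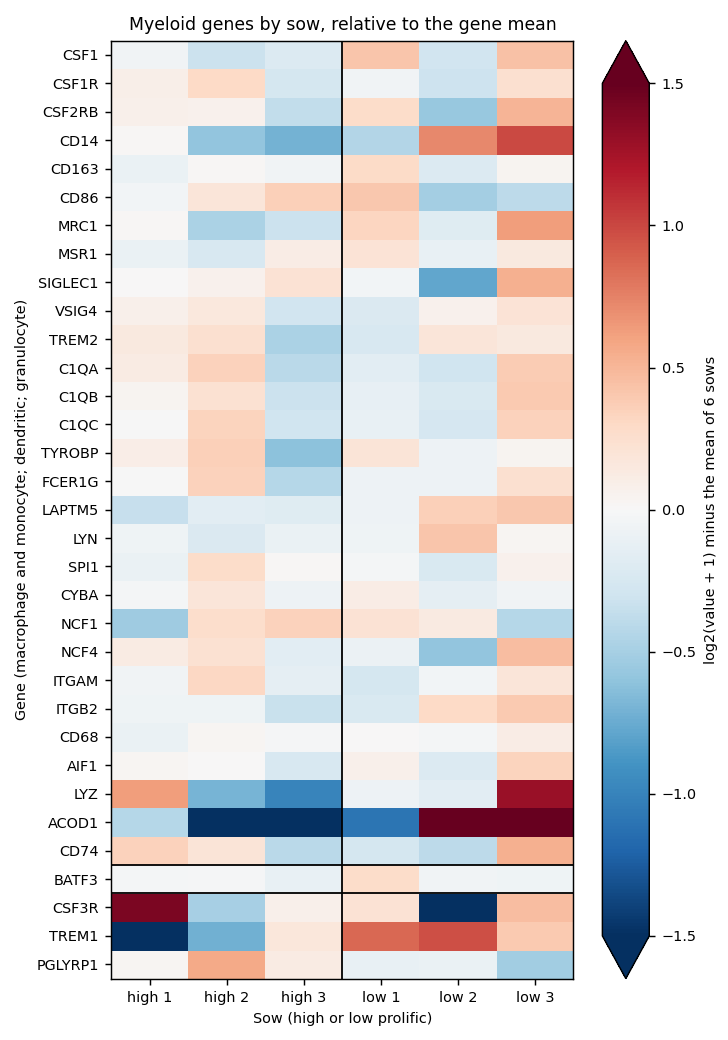
Deviation of log2(value + 1) from the mean of 6 sows for each of the 33 members (rows) in each sow (columns), with colours limited to ±1.5 and horizontal lines between macrophage and monocyte, dendritic and granulocyte genes. Low 3 is red in most macrophage rows and high 3 blue, while ACOD1 and CD14 are red in both low 2 and low 3.

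Over the 29 macrophage and monocyte members each group held sows with high and sows with low levels. Low 3 was the highest sow in 17 members (58.6%, where it was highest in 22.0% of all genes) and the lowest in 0. High 3 was the lowest in 12 members (41.4%, beside 16.4% of all genes) and low 2 in 8 (27.6%, beside 21.3%). The median deviation of the members from their own means was 0.34 in low 3 and 0.16 in high 2. It was -0.0040 in high 1, -0.069 in low 1, -0.16 in low 2 and -0.27 in high 3. These are descriptions, with no test over the members.

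Markers of some other cell types also stood high in low 3. The median deviation of 7 endothelial markers (of 10 listed) was 0.71 there and between -0.42 and 0.15 in the other sows, and their summed value was 10721 to 15649 among the high prolific and 13330.2 to 23904 among the low prolific animals. The median deviation of 8 genes of MHC class II and its regulation or processing was 0.51 against -0.29 to 0.16. For 9 stromal fibroblast markers it was 0.33, the highest sow, and for 8 epithelial markers -0.31, the lowest. For 15 T, NK, B and plasma cell markers it was -0.023, inside the range of the others (-0.15 to 0.33). HBB, a hemoglobin gene of red blood cells, was at 2441, 599.5 and 2265 in high 1 to high 3 and 3614, 1634 and 7672 in low 1 to low 3. The part of these cell types in the macrophage values of low 3 was not tested. PTPRC, which marks all leukocytes, was at 1059.7, 1400.4 and 995 in high 1 to high 3 and 1009.8, 1010.5 and 1286 in low 1 to low 3, with high 2 and low 3 on top.

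**Figure D4:**
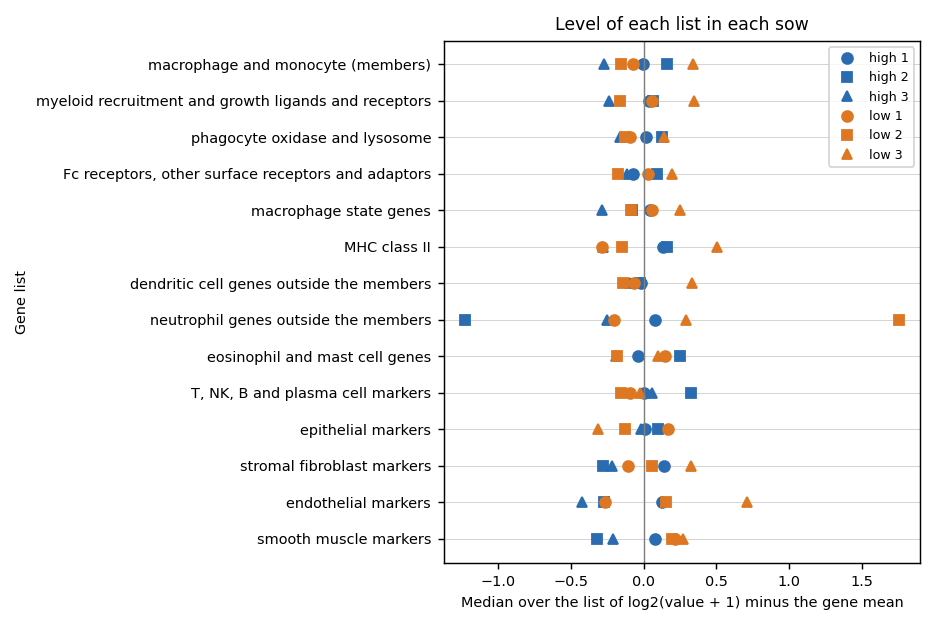
Median over each gene list (rows) of the deviation of log2(value + 1) from the mean of 6 sows, with high prolific sows in blue, low prolific sows in orange and circles, squares and triangles for sows 1, 2 and 3. Low 3 is the right-most sow for the macrophage and monocyte members (0.34) and for endothelial markers (0.71), and the neutrophil list spreads from -1.22 in high 2 to 1.75 in low 2.

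Of the dendritic cell genes only BATF3, a transcription factor of cross-presenting dendritic cells, was measured, which is too little to name the cell type. It was at 28.1, 28.2 and 26.4 in high 1 to high 3 and 34.9, 27.5 and 27.4 in low 1 to low 3. Low 1 was highest and the other 5 sows lay between 26.4 and 28.2, with a log2 fold change of -0.11 (95% interval -0.71 to 0.49). That value became 0.0049 on leaving out low 1 and -0.33 on leaving out low 2 with low 3. Among 10 further dendritic cell genes, 0 passed at an adjusted p under 0.05 and 2 lay lower at an unadjusted p under 0.05 (4.09% of all genes did). CD40, the receptor through which T cells license these cells, was at 183, 188 and 209 in high 1 to high 3 and 243, 302 and 392 in low 1 to low 3 (limma adjusted p = 0.619). FSCN1, an actin-bundling protein, was at 1541, 1261 and 1196 in high 1 to high 3 and 1685, 2022 and 1876 in low 1 to low 3 (adjusted p = 0.619). In both genes every high prolific sow lay below every low prolific sow, as was so in 6.32% of all genes. Neither gene is confined to dendritic cells, as CD40 is also made by B cells and endothelium.

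The 3 granulocyte members disagreed in direction. TREM1, a receptor that amplifies inflammation in neutrophils and monocytes, was at 10.5, 21.1 and 40.1 in high 1 to high 3 and 65.2, 70.3 and 46.8 in low 1 to low 3. All 3 high prolific sows lay below all 3 low prolific sows, with the narrowest gap between high 3 and low 3. The means were 23.9 ± 15.0 in the high and 60.8 ± 12.3 in the low prolific group (SD, n = 3), and on the log2(value + 1) scale the level was 2.78-fold lower in high prolific sows, with a log2 fold change of -1.48 ± 0.49 (SE), a limma unadjusted p of 0.0222 and an adjusted p of 0.619. The values are among the lower ones of the table, where the smallest gene mean was 17.6. With single sows left out that fold change ranged from -1.93 (no high 3) to -1.01 (no high 1), and it was -1.60 on leaving out low 2 with low 3. The unadjusted p exceeded 0.05 when high 2 (0.0526), low 1 (0.0582) or low 2 (0.0672) was left out. TREM2 lies near TREM1 on chromosome 7, with 1 protein-coding gene between them, and its log2 fold change was -0.056.

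PGLYRP1, a neutrophil granule protein that binds bacterial peptidoglycan and can act as a TREM1 ligand, went the other way. It was at 37.5, 54.9 and 40.0 in high 1 to high 3 and 33.9, 34.0 and 25.2 in low 1 to low 3. Every high prolific sow lay above every low prolific sow, with a log2 fold change of 0.49 (95% interval -0.18 to 1.15) and a limma unadjusted p of 0.125. CSF3R, the receptor for the neutrophil growth factor G-CSF, was at 385, 102 and 152 in high 1 to high 3 and 168, 44.3 and 199 in low 1 to low 3. High 1 was highest and low 2 lowest, an 8.67-fold range, and the group difference of 0.66 in log2 units became 0.13 on leaving out high 1 and -0.0081 on leaving out low 2. No sow was the highest in more than 1 of these 3 genes.

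**Figure D5:**
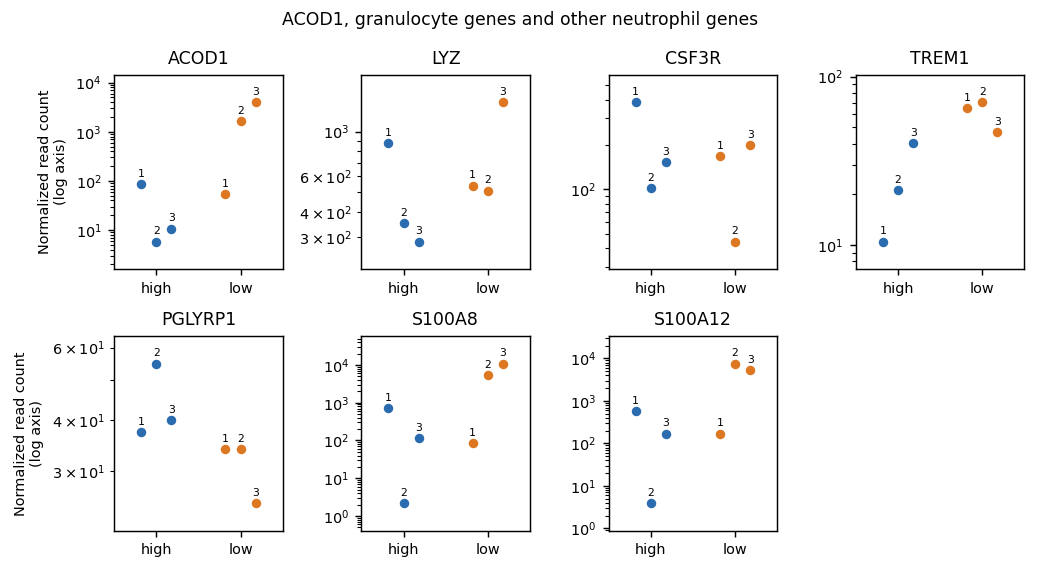
Normalized read counts (log axes) of ACOD1, LYZ, the 3 granulocyte members and the neutrophil genes S100A8 and S100A12, with high prolific sows in blue and low prolific sows in orange, each point a sow numbered as in the text. ACOD1, S100A8 and S100A12 have low 2 and low 3 on top, whereas CSF3R has low 2 at the bottom (44.3).

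Other neutrophil genes were set beside these members, with 8 of 20 measured and 0 at an adjusted p under 0.05 (1 higher and 1 lower at an unadjusted p under 0.05, beside 3.83% and 4.09% of all genes). S100A12, a calgranulin that neutrophils release, was at 582, 3.97 and 169.9 in high 1 to high 3 and 169, 7533 and 5283 in low 1 to low 3. Low 2 and low 3 were above the other 4 sows, as in ACOD1. GCA, the calcium-binding granule protein grancalcin, was at 579, 401 and 280.3 in high 1 to high 3 and 263, 191 and 258 in low 1 to low 3, higher in each high than in each low prolific sow (limma adjusted p = 0.623). Summed over the 8 genes, the level was 1348 (high 2) to 10101 (high 3) among the high prolific animals and 13099 (low 1) to 28295 (low 3) among the low prolific ones. MMP8, the neutrophil collagenase, made up most of the sum in high 1, high 3 and low 1, at 4278, 168 and 8703 in high 1 to high 3 and 11244, 10304 and 1706 in low 1 to low 3, and overlapped between the groups. The median deviation over the 8 genes overlapped too, at 0.079, -1.22 and -0.25 in high 1 to high 3 and -0.20, 1.75 and 0.29 in low 1 to low 3. The part of neutrophils in the ACOD1 values was not tested. PGLYRP2, an amidase that cleaves peptidoglycan, was at 65.6, 118 and 213 in high 1 to high 3 and 800.1, 1719 and 192 in low 1 to low 3, with low 1 and low 2 on top. PGLYRP2 was the 1 gene of this list that lay lower at an unadjusted p under 0.05, and which cells made it was not tested. CSF3R had its lowest value in low 2, the sow with the highest S100A12.

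Other genes of the pathways around the macrophage members were compared in the same way. Among 12 oxidase and lysosome genes, 0 had an unadjusted p under 0.05 (beside 7.92% of all genes). In 11 of the 12 the log2 fold change was smaller in size than its SE (beside 7900 of all 14262 genes). Of the 12, LGMN, a lysosomal protease, had the smallest p (4211 ± 995 in the high and 3365 ± 591 in the low prolific group, SD, n = 3, log2 fold change 0.31). Of 18 Fc receptors, pattern receptors, adaptors and leukocyte genes, 1 lay lower at an unadjusted p under 0.05 (5.56%, near the 4.09% of all genes). This was FGR, a Src family kinase of myeloid cells, at 374, 359 and 469.9 in high 1 to high 3 and 588, 562 and 567 in low 1 to low 3. Every high prolific sow lay below every low prolific sow (limma adjusted p = 0.619). FCGR1A, the high affinity receptor for IgG, was at 531 ± 83.5 in the high and 398 ± 71.1 in the low prolific group and TLR8, a sensor of RNA, at 133 ± 15.1 in the high and 175 ± 44.9 in the low prolific group, without passing.

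Recruitment genes were measured in 10 of 17 cases, with 1 higher and 1 lower at an unadjusted p under 0.05 (beside 3.83% and 4.09% of all genes) and 0 at an adjusted p under 0.05. The lower gene was IL34. CCL2, the ligand that draws monocytes from blood, was at 131, 112 and 134 in high 1 to high 3 and 243, 117 and 316 in low 1 to low 3, with low 1 and low 3 on top and low 2 among the high prolific sows.

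Macrophage state genes, 15 of 21 measured, had 11 log2 fold changes below 0 and 4 above, with a median of -0.23. Of these 15 log2 fold changes, 10 were smaller in size than their SE (beside 7900 of all 14262 genes). Among all 14262 genes, 7183 lay below 0. At an unadjusted p under 0.05, 0 of the 15 state genes were marked (beside 7.92% of all genes). STAB1, a scavenger receptor of resident macrophages and sinusoidal endothelium, was at 1708, 1452 and 1423 in high 1 to high 3 and 1673, 1969 and 2645 in low 1 to low 3. LYVE1, found on perivascular macrophages and lymphatic vessels, was at 309.8, 151 and 283 in high 1 to high 3 and 387, 319 and 454 in low 1 to low 3. CEBPB, a transcription factor of myeloid cells that is also needed in endometrial stroma, was at 5295, 3023 and 7775 in high 1 to high 3 and 9026, 9479.6 and 7222 in low 1 to low 3. In LYVE1 all high prolific sows lay below all low prolific sows, while STAB1 and CEBPB overlapped. Genes of MHC class II and its regulation or processing, 8 of 12 measured, split 4 above and 4 below 0 with a median of -0.017. CIITA, CTSS and IFI30 are among these 8, and CTSS also stands among the oxidase and lysosome genes. IFI30, a thiol reductase of antigen processing, was at 855, 689.9 and 769 in high 1 to high 3 and 719.6, 1487 and 1362 in low 1 to low 3. Low 2 and low 3 were on top for IFI30 (limma adjusted p = 0.655).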

How the data were processed

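Endometrial RNA of 6 sows, frozen in liquid nitrogen and extracted with Trizol per the labels' protocols, gave 1 library each. The authors deposited 1 table of normalized read counts, a signal that is never negative and not whole. Per the submitters' processing notes they used Subread 1.6, featureCounts and edgeR. Settings, normalization, genome build, annotation and strand setting are not given in the sources used here. Coordinates are therefore left out, and reads of overlapping genes or near-identical copies may have been split. Each of the 14262 deposited genes was at 10 or more in at least 3 libraries, so lower genes had been removed. Symbols came from a table of Ensembl identifiers that matched 11977 genes. Neighbouring genes were read from the RefSeq annotation of Sscrofa11.1.

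Each gene's log2(value + 1) was fitted by group in limma 3.58.1 (R 4.3.3), using trended and robust variance moderation, two-sided tests and Benjamini-Hochberg adjustment over all genes at 0.05. The fit was checked on simulated data. Fold changes on this scale understate those of low genes. Values are shown by sow for members with non-overlapping groups or an unadjusted p under 0.05, for the smallest p of each role and for ranges of 4-fold or more. Other members shown were chosen after their values were seen. From each further gene list at most 3 genes with the smallest p are named, and some of these are not reported here. The members and lists were chosen with earlier results of these data known. The 17 alternatives changed the pseudocount, filter, scaling, moderation, weights, parity, replicate block or sows used.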

Additional observations from a re-analysis of the deposited data

How the results depend on the processing

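Over the 17 alternatives no member (0 of 33) reached significance after adjustment, the lowest such value of a member being an adjusted p of 0.152 (ACOD1 without low 1). Leaving out single sows gave 0 to 4 genes at an adjusted p under 0.05 (4 without low 1, 1 without low 2), 466 to 1872 at an unadjusted p under 0.05, and 1 to 5 members there. Without both low 2 and low 3, where low 1 is assumed to vary like the high prolific sows, these were 0, 631 and 1. With the replicate block 615 genes and 3 members had an unadjusted p under 0.05, the 3 being LAPTM5, MRC1 and TREM1. The labels state no pairing of same-numbered sows, so the block is an alternative and not a known pairing. Correlations of the deviations of same-numbered sows from group means were -0.38, -0.16 and -0.36. With 3 sows per group they cannot decide whether a pairing exists.

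Class medians over single sows left out ranged from -0.15 to 0.10 for macrophage and monocyte, -0.0081 to 0.56 for granulocyte and -0.16 to 0.0049 for dendritic genes. Without both low 2 and low 3 they were -0.042, 0.11 and -0.33. CD14 (0.0065), CD86 (-0.24) and ITGB2 (0.067) then changed sign. These were the only sign changes among the 11 members whose log2 fold change exceeded its SE, while 18 of the other 22 changed sign under some alternative. Equal column totals moved the median of all genes by 0.045. The filter at a mean of 200 left no dendritic or granulocyte member. The cause of these shifts was not tested. Unknown depth limits the low genes TREM1, TREM2, BATF3 and PGLYRP1 most.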

Other observations

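Eosinophil and mast cell genes, granulocytes and tissue cells outside the members, were measured in 8 of 15 cases, with 4 log2 fold changes above 0 and 4 below. Groups did not overlap in 2 of the 8, FCER1A and ALOX5, both lower in high prolific sows (beside 6.32% of all genes). At an adjusted p under 0.05 limma called 0 of the 8, and 1 lay higher at an unadjusted p under 0.05 (beside 3.83% of all genes). This was GATA2, a transcription factor of mast cells that endometrial stroma and epithelium also make, at 3319, 4413 and 4114 in high 1 to high 3 and 3376, 2255 and 2168 in low 1 to low 3 (limma adjusted p = 0.619). HDC, which makes histamine, was at 832, 2185 and 2369 in high 1 to high 3 and 1328, 565 and 221 in low 1 to low 3, with low 3 lowest and high 2 and high 3 highest. FCER1A, the IgE-binding chain of the high affinity IgE receptor, was at 65.5, 56.5 and 31.2 in high 1 to high 3 and 91.9, 70.5 and 92.1 in low 1 to low 3. In FCER1A every high prolific sow lay below every low prolific sow, with low 3 and low 1 on top (limma adjusted p = 0.633). MS4A2, the beta chain of the same receptor, ran from 110.3 in high 3 to 339 in low 1 and overlapped between the groups. HDC and the receptor chains thus ordered the sows differently. CCR3, the eotaxin receptor of eosinophils, stayed within 144 in high 1 to 196 in high 2.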
